A study of Mus musculus with 16 samples.

Results

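The genes described here are those whose response to Akti1/2, an inhibitor of the kinase Akt, differed between 2 and 12 h of T cell stimulation. It is a small molecule that binds Akt1 and Akt2 outside their ATP site and keeps them from being activated. For every gene the Akti1/2 effect (Akti1/2-treated minus control cells, log2) was taken at 2 h and at 12 h, and the effect at 2 h was subtracted from that at 12 h. A positive difference means that treated cells moved up against control cells between these hours, and a negative one that they moved down. All 7395 of 18138 genes that lay above the negative control beads on 2 or more of 16 arrays were tested. The difference was called for 2320 of them (limma, Benjamini-Hochberg adjusted p under 0.05), which is 31.4% of the genes tested.

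The cells were D10 cells, a fast-growing murine line derived from a single T helper 2 (Th2) clone, kept in interleukin-2. There were 4 groups of 2 arrays, named 2hour_minusAkti, 2hour_plusAkti, 12hour_minusAkti and 12hour_plusAkti. Cells of the plusAkti groups were given 10 µM Akti1/2 for 1 h, those of the minusAkti groups (controls) were not, and all were then stimulated through CD3 and CD28 with biotinylated antibodies cross-linked by streptavidin. The corresponding groups at 0 and 6 h, with another 8 arrays, entered the fit and are given beside the results. No source used here says whether the duplicates came from separate cultures, so the p-values measure the spread between arrays, which may be technical.

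CD3 and CD28 engagement activates phosphoinositide 3-kinase, which recruits Akt to the membrane. Active Akt keeps the FOXO transcription factors out of the nucleus and releases the kinase complex mTORC1 from its inhibitors TSC1 and TSC2. mTORC1 favours ribosome production, translation and lipid synthesis, and it restrains autophagy and the transcription factors that drive lysosomal genes. In T cells these routes are known for linking antigen recognition to growth, to entry into the cell cycle and to cytokine production. They also run at different speeds, since immediate early and cytokine genes are transcribed within minutes to hours whereas DNA replication genes are switched on later, before S phase.

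Of the Akti1/2 targets, Akt1 and Akt2 were not above the negative controls on any of the 16 arrays, so their transcripts had no measurable level. Of 11 T cell and Th2 markers all but Cd4 were above the negative controls on all 16 arrays, among them Cd3d, Cd3e, Cd3g and Gata3. Cd4 was dim, above the negative controls on 13 arrays with a median intensity of 170.3. None of 19 B cell, CD8, myeloid and natural killer cell markers was above them on more than 1 array, and their summed intensity stayed between 2117.1 and 2656.7.

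The 16 arrays lay on 2 chips, each with 1 array of every group, and duplicates at 2 and 12 h correlated with r between 0.9896 and 0.9936 across genes. The 2hour_plusAkti arrays had the lowest mean intensities, 414.2 and 393.8 against 424.1 to 544.0 on the others, yet the most genes above the negative controls, 6907 and 6796 against 6288 to 6719. The part of this in the results was not tested. Without replicate 2 of that group 1843 genes were called, and without replicate 1 it was 2093. The sign of the difference was the same within each chip for all 2320 called genes, but the call itself rests on both chips, so this is a description. Total RNA of a culture was measured, so fewer cells of a kind and less RNA per cell cannot be told apart.

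The called genes split almost evenly, with 1181 (16% of the genes tested) moving up and 1139 (15.4%) moving down. The median size of the difference among called genes was 0.872 on the log2 scale, with 446 above 1 and 400 below -1, against a median size of 0.41 over all genes tested. The Akti1/2 effect itself was called for 2103 genes at 2 h (28.4%) and for 3620 at 12 h (49.0%), and before stimulation, after the inhibitor alone, for 4 (0.0541%), 3 higher (0.0406%) and 1 lower (0.0135%). At 6 h, on arrays that the difference does not use, the effect lay between those at 2 and 12 h for 1937 of the 2320 called genes (83.5%). These genes were chosen for a wide gap between the effects at 2 and 12 h, which leaves more room for a value between them, so the share is a description.

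Between 2 and 12 h 3660 genes (49.5%) changed in treated cells and 2092 (28.3%) in control cells. Among called genes this showed as more movement in the treated cells. Among genes that moved up, 665 changed between 2 and 12 h in treated cells only, 213 in control cells only, 264 in both and 39 in neither. Among genes that moved down these numbers were 644, 223, 212 and 60. In 150 and 129 of the genes that changed in both, control and treated cells went in opposite directions.

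By the calls at each hour, the genes fell into 6 classes. The effect had been called at both hours with opposite signs in 206 genes (reversed), of which 115 went from lower to higher in treated cells and 91 from higher to lower. It was called at both hours with the same sign and was larger at 12 h in 244 genes (grown), 131 upward and 113 downward. In 1354 genes it was called at 12 h only (late, 669 up and 685 down), in 380 at 2 h only (early, 201 and 179), in 22 at both hours but smaller at 12 h (shrunk, 12 and 10), and in 114 at neither hour. As shares of the genes tested the reversed class made up 2.79%, the grown class 3.30%, the late class 18.3%, the early class 5.14%, the shrunk class 0.297% and the genes called at neither hour 1.54%. A late gene is one that passed at 12 h and missed the threshold at 2 h, so its effect at 2 h is not shown to be absent. In all reversed and all grown genes the treated and control arrays did not overlap at either hour. As the classes rest on calls from the same arrays, a lack of overlap in their members is a description. The counts of reversed, grown and early genes leaned on the 2 h arrays, and that of late genes leaned more on the 12 h arrays. Reversed genes numbered 96 without replicate 2 of 2hour_plusAkti, 100 and 110 without either control array at 2 h, and 133, 133 and 135 without replicate 2 of the 12 h controls or without either treated array at 12 h. Grown genes numbered 110 to 129 without any of the 2 h arrays, and early genes 200 without replicate 2 of 2hour_plusAkti and 226 without replicate 1 of 2hour_minusAkti.

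**Figure D1:**
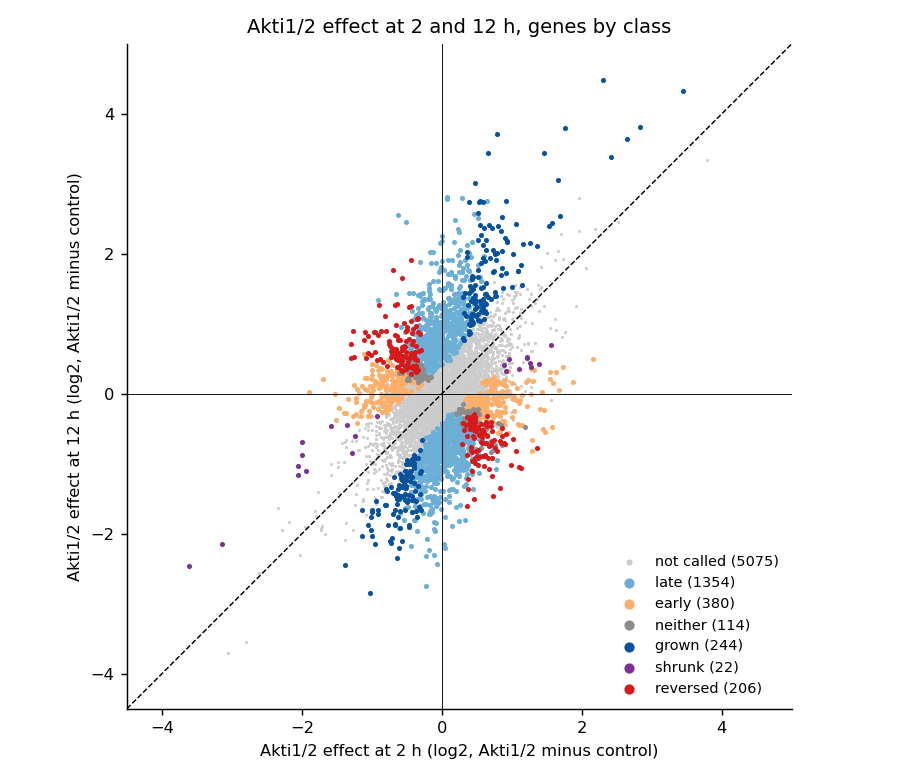
Each point is a tested gene, with the Akti1/2 effect at 2 h on the horizontal and at 12 h on the vertical axis (log2, treated minus control, mean of 2 arrays each), coloured by class with the number of genes in brackets. The dashed line marks equal effects. The 206 reversed genes lie at the upper left and lower right, and the 244 grown genes lie farther from 0 on the vertical than on the horizontal axis.

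Among the genes whose effect reversed upward, the first by size was Slc2a6, a member of the glucose transporter family. It read 8.83 and 8.47 in control and 7.88 and 8.03 in treated cells at 2 h, then 9.33 and 9.18 in control and 10.97 and 11.07 in treated cells at 12 h, so treated arrays were the lower pair at 2 h and the higher pair at 12 h. The difference was 2.46 ± 0.24 (SE, limma adjusted p = 5.39e-05). Grn, which encodes progranulin, a secreted glycoprotein that is also delivered to lysosomes, read 9.59 and 9.68 in control and 8.79 and 8.69 in treated cells at 2 h. At 12 h it read 9.25 and 9.28 in control and 10.51 and 10.57 in treated cells. Again the arrays did not overlap at either hour, the order turned round, and treated cells alone accounted for most of the shift, with a change of 1.80 from 2 to 12 h against -0.37 in controls. The Grn difference was 2.16 ± 0.14 (limma adjusted p = 4.82e-06), the smallest adjusted p of the difference, shared by several genes. Bcas3 had effects of -0.44, 0.68 and 1.92 at 2, 6 and 12 h. LOC100047173, a predicted gene that the array annotation likens to synaptotagmin-like 1, differed in kind: treated cells stayed at 7.82 and 7.98 at 2 h and 7.93 and 7.98 at 12 h, while control cells dropped from 8.51 and 8.43 to 6.52 and 6.09.

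Genes that reversed downward were raised by Akti1/2 at 2 h and below control at 12 h. Pa2g4, a growth-regulated protein found in the nucleolus and on ribosomes, read 9.95 and 9.98 in control and 10.76 and 10.83 in treated cells at 2 h. At 12 h it read 10.45 and 10.49 in control and 9.23 and 9.02 in treated cells, with no overlap at either hour and a difference of -2.17 ± 0.23 (limma adjusted p = 6.94e-05). The other genes at the head of this class were Cct5, a subunit of the chaperonin that folds actin and tubulin, at -2.20 ± 0.50, Piwil2, a Piwi protein best known from the germ line, at -2.19 ± 0.24, and Ifrd2, a protein that binds idle ribosomes, at -2.14 ± 0.47. Cct5 and Ifrd2 had the widest spread between duplicates of the 8 genes. Their treated arrays lay wholly above control at 2 h and wholly below it at 12 h. This was so for all 91 genes that reversed downward, so it adds no support for these genes. For Piwil2 both arms moved, control cells by 0.96 and treated cells by -1.23 between the hours.

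**Figure D2:**
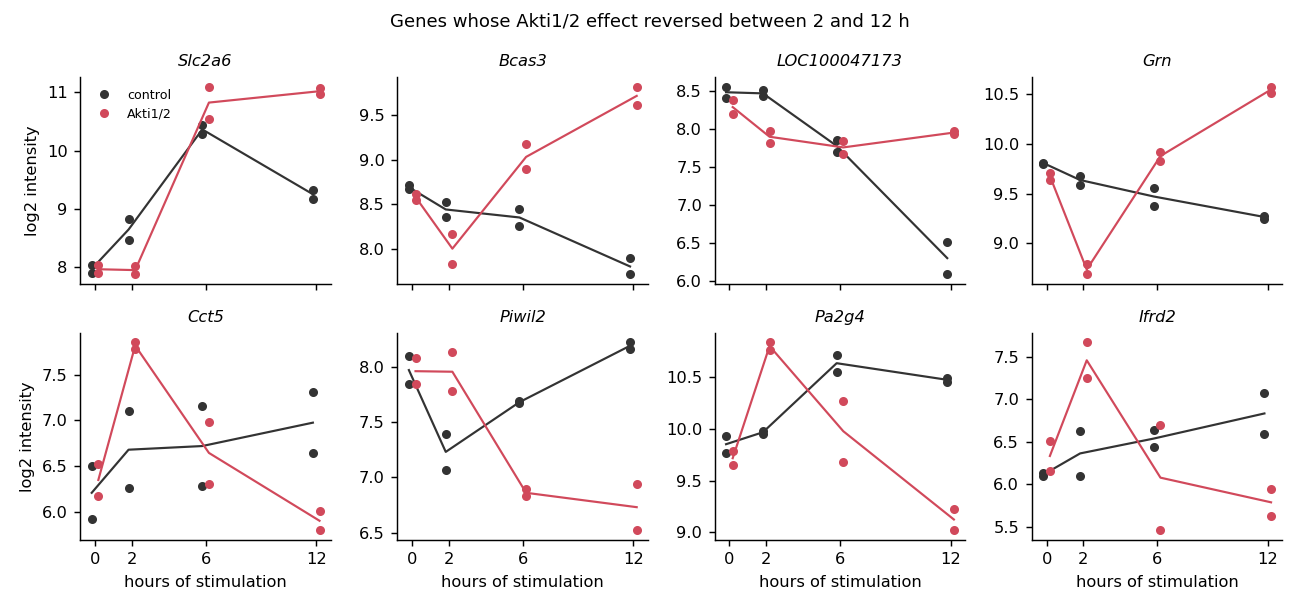
Log2 intensity on each array (points, 2 per group) over 0, 2, 6 and 12 h of stimulation for the 4 genes with the largest upward and the 4 with the largest downward reversal, with lines through the group means. In the upper row treated cells (red) lie below control (black) at 2 h and above at 12 h, and in the lower row the order is the opposite.

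Over the whole reversed class the intermediate hour fell between the end points. The 115 upward genes had median effects of -0.573 at 2 h, 0.111 at 6 h and 0.593 at 12 h, and 81 of them were already above 0 at 6 h. The 91 downward genes had medians of 0.563, -0.188 and -0.679, and 69 of them were below 0 at 6 h. Before stimulation the medians were -0.064 and -0.01. Treated cells carried the larger change in both directions, with medians of 1.016 and -0.993 between 2 and 12 h against -0.205 and 0.196 in control cells.

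Genes whose effect grew upward were led by N4bp2l1, Ypel3 and Sqstm1. Sqstm1 encodes p62, the receptor that carries ubiquitinated cargo to autophagosomes. It read 10.42 and 10.41 in control and 10.75 and 11.05 in treated cells at 2 h, then 10.14 and 10.18 in control and 13.20 and 13.14 in treated cells at 12 h. Treated arrays were the higher pair at both hours, the effect went from 0.48 through 1.30 at 6 h to 3.01 at 12 h, and the difference was 2.53 ± 0.16 (limma adjusted p = 4.82e-06). In Ypel3, a growth-restraining member of the yippee family, and in N4bp2l1 the arms diverged instead. N4bp2l1 fell in control cells from 8.04 and 7.94 to 6.28 and 6.29 and rose in treated cells from 8.77 and 8.79 to 10.07 and 9.94, a difference of 2.93 ± 0.18 (limma adjusted p = 4.82e-06). Ypel3 had a difference of 2.79 ± 0.21, with changes of -1.43 in control and 1.36 in treated cells.

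Nkg7, a membrane protein of cytotoxic granules, headed the genes whose effect grew downward, at 11.67 and 11.75 in control and 11.03 and 11.17 in treated cells at 2 h. At 12 h it was at 11.24 and 11.12 in control and 9.0 and 8.95 in treated cells. Treated arrays were the lower pair at both hours, by 0.61 and then by 2.21 on average, and the difference was -1.60 ± 0.17 (limma adjusted p = 6.94e-05). Hba-a1, an alpha globin gene with a near-identical neighbouring copy that the probe may share, gave effects of -0.57, -1.40 and -2.10 at 2, 6 and 12 h. Nutf2, which carries the GTPase Ran into the nucleus, gave -0.46, -1.30 and -1.90, and here control cells rose by 1.03 between 2 and 12 h while treated cells fell by 0.41.

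Late effects were the commonest kind. Gpnmb, a glycoprotein of lysosomes and melanosomes, was at 9.12 and 9.08 in control and 9.09 and 9.27 in treated cells at 2 h, where the arrays overlapped. At 12 h it was at 8.89 and 8.79 in control and 11.71 and 11.60 in treated cells, and the difference was 2.73 ± 0.17 (limma adjusted p = 4.82e-06). Abtb1 (3.19 ± 0.37) and Atf5, a stress-responsive transcription factor (2.96 ± 0.44), had larger differences with larger errors. For Atf5 the treated arrays at 2 h read 6.60 and 5.17, which lie on either side of the controls at 6.33 and 6.45, while at 12 h treated cells stood at 8.57 and 8.48 above controls at 6.09 and 6.04. Downward, the late genes were headed by Stra6, the receptor that takes up retinol from its carrier, Car12, a carbonic anhydrase of the cell surface, and Mybl2, a transcription factor of the cell cycle. Mybl2 was at 8.69 and 8.52 in control and 8.51 and 8.48 in treated cells at 2 h, with adjoining arrays, and at 9.26 and 9.16 in control and 6.79 and 7.02 in treated cells at 12 h. Its difference was -2.19 ± 0.19 (limma adjusted p = 2.53e-05), and those of Stra6 and Car12 were -2.37 ± 0.31 and -2.24 ± 0.25.

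**Figure D3:**
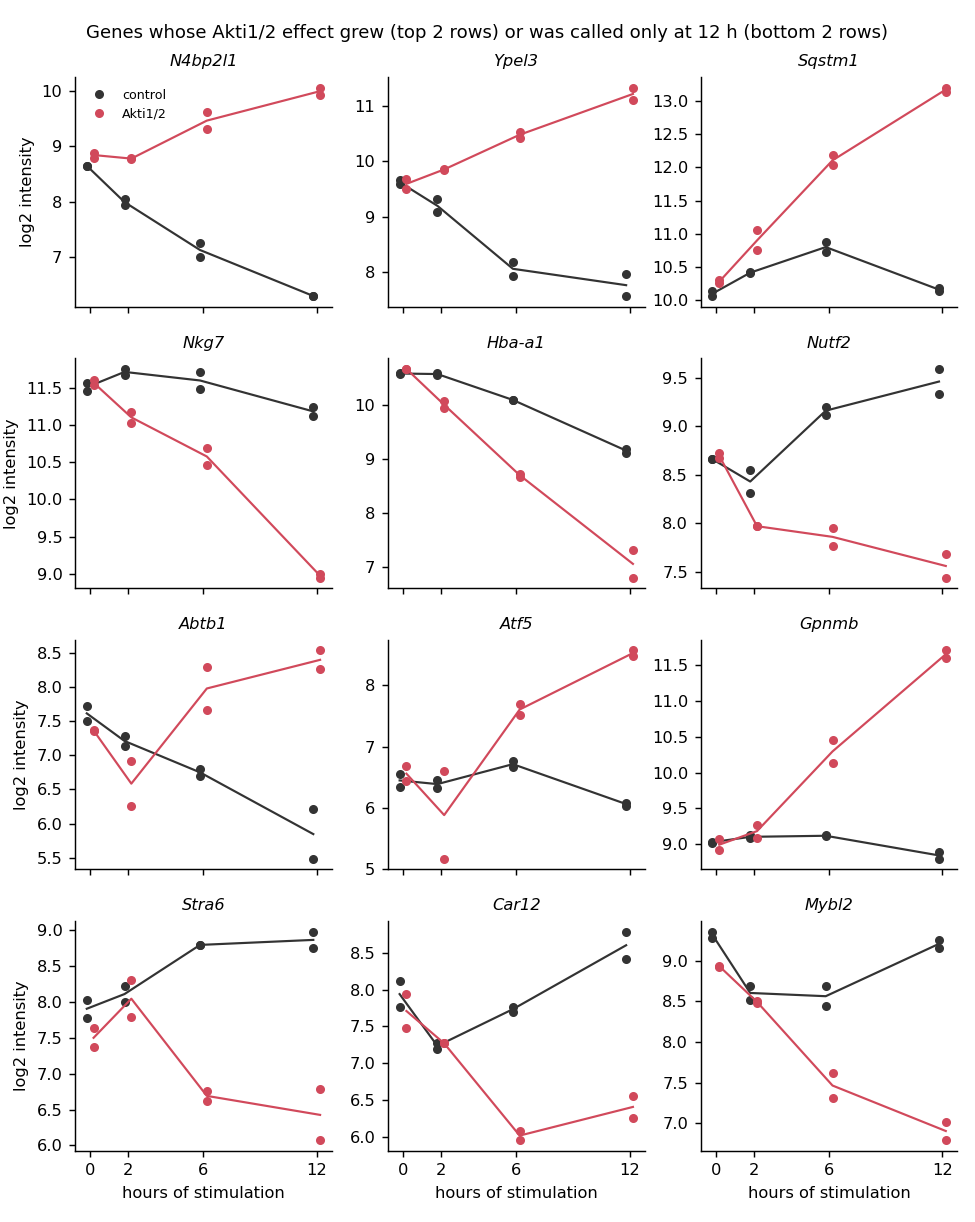
Log2 intensity on each array over the hours of stimulation for genes whose Akti1/2 effect grew (upper 2 rows) and genes for which it was called at 12 h only (lower 2 rows), with lines through the group means of control (black) and treated cells (red). For Sqstm1 and Gpnmb control cells stay within a log2 unit while treated cells rise to 13.20 and 11.71, and for N4bp2l1 and Ypel3 the arms part in both directions.

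Shrunk effects were called at both hours and smaller at 12 h, and early ones were called at 2 h only. Among the shrunk, Tnf, the inflammatory cytokine tumour necrosis factor, was at 11.30 and 11.10 in control and 7.52 and 7.66 in treated cells at 2 h, and at 10.07 and 10.23 in control and 7.30 and 8.08 in treated cells at 12 h. Treated cells were lower at both hours without overlap, but the gap shrank from 3.61 to 2.46 on the log2 scale as control cells fell by 1.05, and the difference was 1.15 ± 0.34 (limma adjusted p = 0.0226, with the call lost in 4 refits). Fitm2, a protein of lipid droplet formation, went from an effect of -1.99 to one of -0.69, and Hif1a, the oxygen-regulated transcription factor, from 1.39 to 0.42. The histone gene H2ac15 went from 1.28 to 0.38. H2A genes are close copies of one another, so their probes may share transcripts.

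Among early effects, Myo1g, a myosin of haematopoietic cells, was at 9.99 and 9.87 in control and 8.34 and 8.13 in treated cells at 2 h. At 12 h it was at 9.98 and 9.56 in control and 9.84 and 10.12 in treated cells, so arrays that stood apart at 2 h overlapped at 12 h (difference 1.91 ± 0.34, limma adjusted p = 0.00141). Sh3tc1 had a difference of 1.93 ± 0.39. Rad23b, which hands damaged DNA to repair and ubiquitinated proteins to the proteasome, was raised at 2 h to 10.37 and 10.69 from 8.84 and 9.07 in control cells and had an effect of -0.47 at 12 h that was not called. The predicted gene Gm9391 had a difference of -2.11 ± 0.60, and lost its call in 3 refits. Of the 380 early genes, 142 of the 201 upward and 122 of the 179 downward ones changed between 2 and 12 h in treated cells only.

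The members of each gene list that moved up or down are counted beside the 16% of all genes tested that moved up and the 15.4% that moved down. Of 41 tested genes of DNA replication and S phase, 25 moved down and none up, and 16 were not called. Their median effect was 0.05 at 2 h, 0.004 at 6 h and -0.604 at 12 h. At 6 h 11 of the 41 were called lower (18.7% of all genes tested were) and 3 higher (18.8%). Tk1, the thymidine kinase of proliferating cells, was at 8.98 and 8.76 in control and 9.15 and 8.90 in treated cells at 2 h. At 12 h control arrays stayed at 8.76 and 8.81 and treated arrays were at 6.91 and 6.89, a difference of -2.04 ± 0.16 (limma adjusted p = 1.38e-05). Rrm1, the large subunit of ribonucleotide reductase, and Chaf1a, which deposits histones behind the replication fork, reversed, from 0.51 to -1.01 and from 0.92 to -0.57. The call count of this list was 19 to 23 when any array was left out.

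Of 37 tested ribosome biogenesis genes, 24 moved down (64.9%, against 15.4% of all genes tested) and none up (against 16%), and 13 were not called. The genes had median effects of 0.042, -0.481 and -0.806 at 2, 6 and 12 h. Their median change from 2 to 12 h was 0.36 in control and -0.475 in treated cells. Rrp9, a component of the small nucleolar particle that contains U3 RNA, was at 9.14 and 9.40 in control and 9.88 and 9.58 in treated cells at 2 h, and at 10.24 and 10.24 in control and 8.56 and 8.91 in treated cells at 12 h. It thus reversed, with a difference of -1.96 ± 0.20 (limma adjusted p = 5.68e-05), as did Nop2, an rRNA methyltransferase, at -1.58 ± 0.16. Ftsj3, a protein of pre-ribosomal particles, was at -1.80 ± 0.23. Leaving out any array gave 16 to 22 calls.

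Of 55 tested cytosolic ribosomal protein genes 4 moved up (7.27%, against 16% of all genes tested) and 1 down (1.82%, against 15.4%). The median difference was 0.102, and fewer genes moved up with any array left out. In the remaining refits 1 to 8 moved up, so the upward share depends on the processing. The gene that moved down was Rps27a, a fusion of ubiquitin to a ribosomal protein, at -0.79 ± 0.17. Rps15 had a difference of 0.60, and Rpl7a, which lost its call in 9 refits, one of 0.45.

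Of 28 tested heat shock, chaperonin and endoplasmic reticulum (ER) folding genes 11 moved down (39.3%, against 15.4% of all genes tested), 3 up (10.7%, against 16%) and 14 were not called. The downward members included Cct5, described above, Hspe1, the lid of the mitochondrial chaperonin (-1.54 ± 0.41, limma adjusted p = 0.0134), and Calr, a calcium-binding chaperone of the ER. Calr read 9.91 and 9.78 in control and 10.59 and 11.15 in treated cells at 2 h, and 11.00 and 10.95 against 10.28 and 10.38 at 12 h, a reversal of -1.68 ± 0.26 (limma adjusted p = 0.000637). The 3 upward members were Xbp1, a transcription factor of the unfolded protein response, Pdia4, a disulfide isomerase, and Dnajb1, a cofactor of Hsp70, with differences of 0.52, 0.52 and 0.44 that were lost in 11, 11 and 9 refits.

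Of 34 tested lysosome and autophagy genes, 16 moved up and 2 down, where 16% of all genes tested moved up and 15.4% down, with a median effect of -0.108 at 2 h, 0.059 at 6 h and 0.426 at 12 h. Beside Sqstm1 and Grn, the gene with the largest upward difference was Atp6v0d1, a subunit of the proton pump that acidifies lysosomes. It was at 10.13 and 10.23 in control and 10.28 and 10.27 in treated cells at 2 h and at 9.61 and 9.72 against 11.30 and 11.13 at 12 h, a difference of 1.46 ± 0.15 (limma adjusted p = 6.14e-05). The exceptions were the lysosomal enzymes Gusb, whose effect grew from -0.73 to -2.10, and Ctsz, which went from 0.46 to -0.43. With an array left out, 11 to 16 genes moved up.

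The transcription factors that mTORC1 holds back from lysosomal genes, TFEB and TFE3, and Myc, which drives ribosome production, both read the E-box CACGTG. This motif, which reads the same on both strands, was looked for in RefSeq promoters of the mouse assembly GRCm38.p6, from 250 bases before to 50 bases after each transcript start. It was present in 7.15% of all 32851 promoters of the table and in 10.2% of 7046 promoters of the genes tested. It was present in 6 of 15 promoters of the lysosome and autophagy genes that moved up (40%) and in 5 of 23 promoters of the ribosome biogenesis genes that moved down (21.7%). Over all members of these lists, called or not, it was in 9 of 30 (30%) and 8 of 35 promoters (22.9%), and in the lists of aminoacyl-tRNA synthetases and DNA replication in 30.8% and 19.4%, so such shares were not confined to the members that moved. The motifs of FOXO (GTAAACA), ATF4 (TGATGNAA), NF-kB, AP-1 (TGANTCA), CRE (TGACGTCA), the CCAAT-box (CCAAT) and the sterol element (CACCCCAC) were looked for on both strands as well and lie in 0.411% to 37.4% of all promoters. The CCAAT-box was in 6 of the 15 and 7 of the 23 promoters, and each of the others in at most 2 of either set. Promoters were matched for 13 of the 16 and 22 of the 24 genes. The stretches below show E-boxes in capitals ahead of the start in genes whose effects moved in opposite directions. They belong to the genes with the largest differences in each list that hold an E-box wholly before the start, and were chosen after the values were seen. A match is a description of the letters and does not show that a factor binds there.
Cln3 (chr7:126583312-126583397, minus strand, difference 1.12): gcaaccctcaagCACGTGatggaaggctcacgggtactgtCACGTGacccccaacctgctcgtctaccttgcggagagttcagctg
Mcoln1 (chr8:3500434-3500518, plus strand, difference 1.04): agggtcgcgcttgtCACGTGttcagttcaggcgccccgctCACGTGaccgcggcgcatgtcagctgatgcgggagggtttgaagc
Nop2 (chr6:125131783-125131868, plus strand, difference -1.58): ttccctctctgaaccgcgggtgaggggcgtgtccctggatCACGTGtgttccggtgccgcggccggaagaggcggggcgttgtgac

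Cln3, mutated in a juvenile form of the lysosomal storage disorder neuronal ceroid lipofuscinosis, and Mcoln1, the calcium channel mucolipin, each hold 2 E-boxes in this stretch. RefSeq gives Cln3 2 starts, and the stretch precedes the downstream one, so it lies within the longer transcript unit, whereas those of Mcoln1 and Nop2 lie ahead of the gene. Cln3 was reversed, at 8.32 and 8.26 in control and 7.78 and 7.77 in treated cells at 2 h and at 8.80 and 8.58 against 9.35 and 9.24 at 12 h. Mcoln1 was late, with effects of 0.04 and 1.08. Nop2, with 1 E-box, had effects of 0.37 and -1.21, and so went the other way.

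FOXO factors and genes of quiescence, which Akt restrains, moved up in 10 of 23 cases (43.5%, against 16% of all genes tested). None moved down (against 15.4%). With any array left out fewer moved up, and without replicate 1 of 2hour_plusAkti there was a downward call. The list had median effects of 0.246 at 2 h, 0.693 at 6 h and 0.704 at 12 h. Irs2, an adaptor of insulin and cytokine receptors, was at 8.56 and 8.52 in control and 8.75 and 8.81 in treated cells at 2 h, and at 8.13 and 7.95 against 10.29 and 10.41 at 12 h (2.07 ± 0.25, limma adjusted p = 0.000156). Btg1, an antiproliferative gene, had effects of 0.36 and 1.96. Pik3ip1, an inhibitor of phosphoinositide 3-kinase, was not above the negative controls in control cells at 12 h and read 9.12 and 8.69 in treated cells there, at least 9.14-fold higher. At 2 h it was above them on 1 of the 2 control arrays and on both treated arrays.

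Of 25 targets of ATF4, the transcription factor of the integrated stress response, 22 were called higher under Akti1/2 at 2 h (13.6% of all genes tested were), and 24 were called higher (24.2%) and 1, the glutamine transporter gene Slc1a5, lower at 12 h. The median effects were 1.157 and 1.633. In the difference 9 moved up (36%, against 16% of all genes tested) and none down (against 15.4%). Besides Atf5 they included Slc6a9, a glycine transporter, which went from an effect of 1.05 to one of 2.43. Nupr1, a stress-induced chromatin protein, was not above the negative controls in control cells at 2 h and had an effect of 2.33 at 12 h. Among aminoacyl-tRNA synthetases, the enzymes that load amino acids onto tRNA, 5 of 17 moved up (29.4%, against 16% of all genes tested). There was 1 down (5.88%, against 15.4%), and fewer moved up without replicate 2 of 12hour_minusAkti. Those named by size were Wars (1.12 ± 0.18), Sars (1.02 ± 0.23), Qars (0.72) and, downward, Rars (-0.46, lost in 7 refits).

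**Figure D4:**
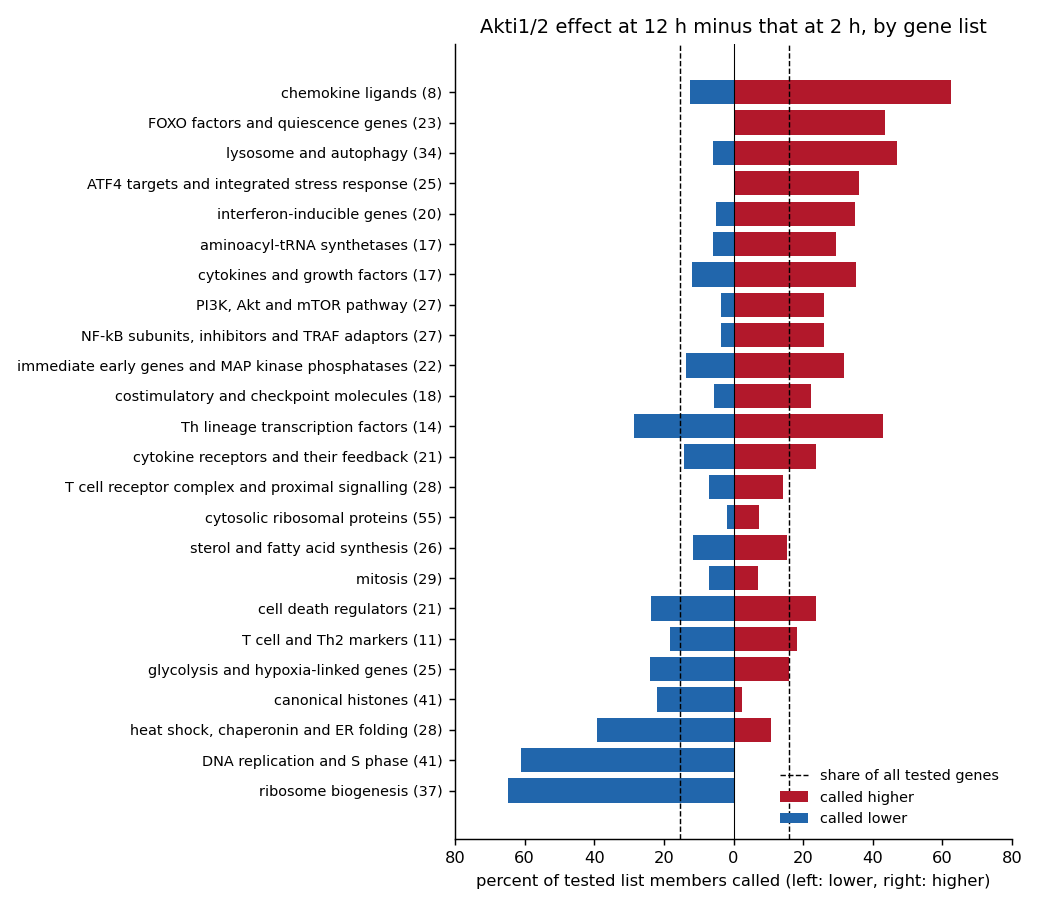
Percent of tested members of each gene list whose Akti1/2 effect moved up (red, to the right) or down (blue, to the left) from 2 to 12 h, with the number tested in brackets, and dashed lines at the 16% and 15.4% of all genes tested. Ribosome biogenesis and DNA replication lie farthest to the left, with no member up, and chemokines, FOXO and lysosome genes lie farthest to the right.

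Most cytokine genes were lower under Akti1/2 at both hours, and the gap narrowed for some and widened for others. Of 17 tested cytokine and growth factor genes 12 were lower in treated cells at 2 h (14.9% of all genes tested were) and 13 at 12 h (24.8%). In the difference 6 moved up (35.3%, against 16% of all genes tested) and 2 down (11.8%, against 15.4%). Fewer moved up with several arrays left out, among them replicate 1 of either control group and either 2hour_plusAkti array. Ltb, which encodes lymphotoxin beta, reversed. It was at 11.03 and 10.67 in control and 9.61 and 9.49 in treated cells at 2 h and at 10.27 and 10.25 against 10.65 and 10.91 at 12 h, a difference of 1.82 ± 0.21 (limma adjusted p = 0.000141). Csf1, the macrophage growth factor, was held up in treated cells while controls fell by 1.27, and Il4, the signature cytokine of Th2 cells, had effects of 0.33 and 0.99, with a difference of 0.66 ± 0.20 that was lost in 5 refits. Areg, the epidermal growth factor receptor ligand amphiregulin, and Tgfb1, a regulatory cytokine, moved down, Areg from -1.39 to -2.45.

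Of 8 tested chemokine genes 5 moved up (62.5%, against 16% of all genes tested) and 1 down, and with any array left out 2 or 3 moved up. Ccl3, an inflammatory chemokine, was at 11.04 and 10.87 in control and 10.39 and 10.62 in treated cells at 2 h and at 11.69 and 11.63 against 12.55 and 12.85 at 12 h, so treated arrays passed from the lower to the higher pair (1.49 ± 0.18, limma adjusted p = 0.000149). Cxcl10, a ligand of CXCR3, was lower in treated cells at 2 h only, by 1.22 on the log2 scale, as control cells came down by 1.14. Cxcl2, a neutrophil chemokine, had a difference of 0.91 that was lost in 11 refits. Xcl1, the chemokine lymphotactin, was at background in all of the 4 groups but the 12 h controls, where it was at least 1.47-fold brighter than in treated cells.

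Of 18 tested costimulatory and checkpoint genes, 2 reversed upward. Cd274 and Pdcd1lg2, which encode the ligands PD-L1 and PD-L2 of the checkpoint receptor PD-1, had effects of -0.86 and -1.05 at 2 h and 0.90 and 0.83 at 12 h. Cd274 was at 8.93 and 8.48 in control and 7.80 and 7.89 in treated cells at 2 h and at 8.50 and 8.38 against 9.47 and 9.20 at 12 h, without overlap at either hour (1.76 ± 0.26, limma adjusted p = 0.000458). In all, 4 of the 18 moved up (22.2%, against 16% of all genes tested) and 1 down (5.56%, against 15.4%). The downward gene was Cd160, a receptor of natural killer and T cells, which at 12 h was at least 4.95-fold higher in control cells. Cd69, an early activation marker, fell less in treated cells (by 0.94) than in controls (by 2.02).

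Nfkb2, which encodes the p100 subunit of the non-canonical NF-kB route, was at 6.81 and 7.17 in control and 6.63 and 5.53 in treated cells at 2 h and at 7.75 and 7.60 against 8.42 and 8.61 at 12 h. Its groups did not overlap at either hour, although the treated duplicates at 2 h lay far apart (1.75 ± 0.39, limma adjusted p = 0.0056). Relb, the partner of p100, had effects of 0.24 and 1.52 and the kinase gene Ikbke effects of -0.76 and 0.49. Of 27 genes for NF-kB subunits, inhibitors and TRAF adaptors 7 moved up (25.9%, against 16% of all genes tested). The adaptor Traf5 moved down (1 gene, 3.7%, against 15.4%), and the list had a median difference of 0.345.

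Of 21 cytokine receptor and feedback genes 5 moved up (23.8%, against 16% of all genes tested) and 3 down (14.3%, against 15.4%). Il2ra, the alpha chain of the interleukin-2 receptor, was at 8.61 and 8.61 in control and 7.82 and 7.95 in treated cells at 2 h, and at 10.31 and 10.15 against 7.78 and 8.42 at 12 h, so the gap widened as control cells rose by 1.62 (-1.40 ± 0.32, limma adjusted p = 0.00588). Il12rb1, a subunit of the interleukin-12 receptor, behaved alike, with a rise of 1.84 in controls and a difference of -1.52 ± 0.27. The third was Il1r2, a decoy receptor for interleukin-1. Cish, a feedback inhibitor of cytokine signalling, reversed upward from -0.96 to 0.60, Il1rl1, the interleukin-33 receptor, from -0.50 to 0.43, and Ifngr1 grew from 0.75 to 1.75.

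Of 22 immediate early genes and MAP kinase phosphatases 7 moved up (31.8%, against 16% of all genes tested) and 3 down (13.6%, against 15.4%). With an array left out 6 to 8 moved up. Downward, 1 was called without replicate 2 of 2hour_minusAkti, either 12 h control array or replicate 1 of 12hour_plusAkti, and 5 were called without replicate 2 of 12hour_plusAkti. Egr2, a zinc finger factor induced by antigen receptors, read 10.23 and 9.54 in control and 8.93 and 8.83 in treated cells at 2 h and 8.71 and 8.74 against 9.04 and 9.52 at 12 h (1.56 ± 0.29, limma adjusted p = 0.00219). Controls came down by 1.16 and treated cells were already lower at 2 h. The phosphatase genes Dusp4 and Dusp1 had differences of 1.74 ± 0.25 and 1.25 ± 0.25. Irf8, an interferon regulatory factor that rose by 1.48 in control cells, moved down by 1.05, and the phosphatase genes Dusp14 and Dusp2, also downward, lost their calls in 8 and 9 refits.

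Among 14 transcription factors of T helper lineages 6 moved up (42.9%, against 16% of all genes tested) and 4 down (28.6%, against 15.4%). Without replicate 2 of 2hour_minusAkti, replicate 1 of 2hour_plusAkti or replicate 1 of 12hour_minusAkti 3 moved up, without replicate 2 of 12hour_minusAkti or replicate 1 of 12hour_plusAkti 2 did, and without replicate 2 of 2hour_plusAkti 2 moved down. Bach2, a repressor that restrains effector differentiation, was at 6.65 and 6.73 in control and 6.56 and 6.57 in treated cells at 2 h and at 6.11 and 5.57 against 7.47 and 7.42 at 12 h (1.74 ± 0.21, limma adjusted p = 0.000162). Bhlhe40 and Bcl6 had differences of 1.19 and 0.82, lost in 4 and 5 refits. Downward were Id3, an inhibitor of E proteins that was raised at 2 h only (1.15, then -0.01), Stat5a, which relays interleukin-2 signals, and Gata3, the master regulator of Th2 cells. Gata3 stood at 12.69 and 12.58 in control and 13.07 and 13.31 in treated cells at 2 h and at 12.49 and 12.53 against 12.46 and 12.41 at 12 h, where the effect was not called (-0.63 ± 0.17, limma adjusted p = 0.0145).

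**Figure D5:**
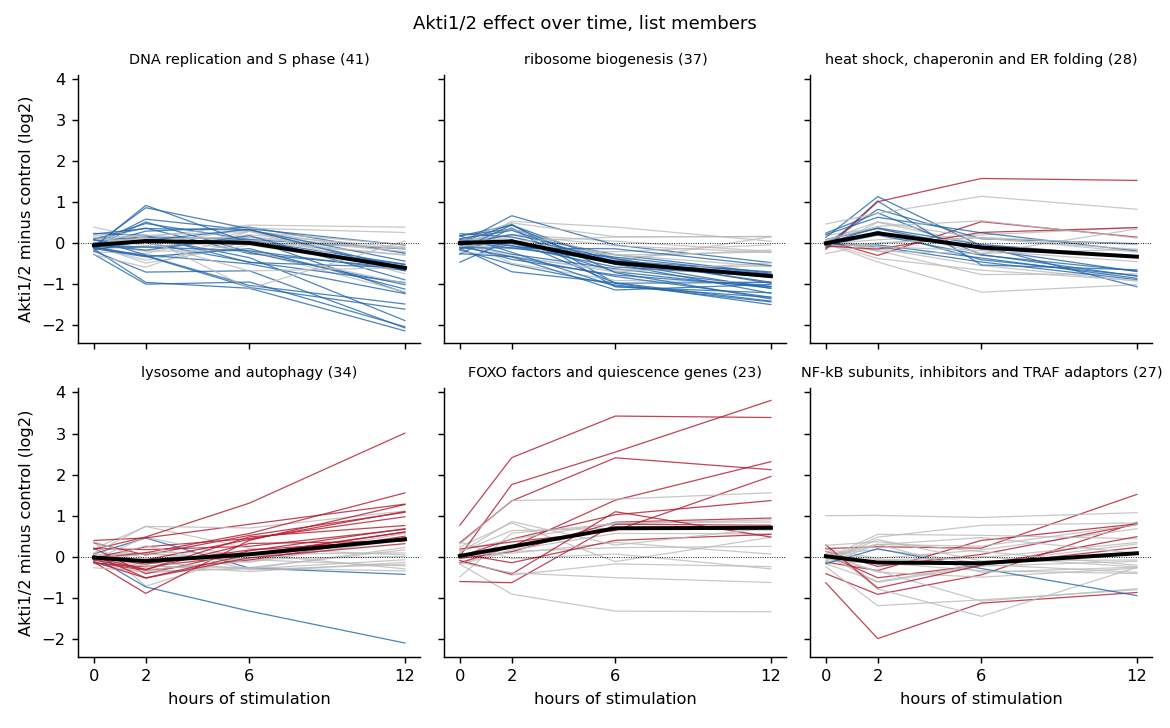
Akti1/2 effect (treated minus control, log2, mean of 2 arrays each) at 0, 2, 6 and 12 h for every tested member of 6 gene lists, with members whose effect moved up in red, down in blue and not called in grey, and the list median in black. The median of ribosome biogenesis is at -0.481 by 6 h. That of DNA replication is then at 0.004, with 11 of 41 members called lower and 3 higher.

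Of 21 regulators of cell death 5 moved up (23.8%, against 16% of all genes tested) and 5 down (23.8%, against 15.4%; 3 down without replicate 2 of 2hour_minusAkti or replicate 1 of 12hour_plusAkti). Bbc3, which encodes the proapoptotic protein PUMA, was at 8.69 and 8.69 in control and 8.55 and 8.79 in treated cells at 2 h and at 6.88 and 6.96 against 9.19 and 8.96 at 12 h, as control cells fell by 1.77 and treated cells rose by 0.40 (2.17 ± 0.16, limma adjusted p = 1.16e-05). Casp4, an inflammatory caspase, rose in both arms, by 1.24 and 2.85, and Apaf1, the scaffold of the apoptosome, reversed from -0.57 to 0.68. Bcl2l1, the antiapoptotic gene of BCL-XL, rose by 1.45 in controls only, with a difference of -1.50. The proapoptotic Bak1 and Cycs, the gene of cytochrome c, were the next downward members and each had a group at background.

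Of 25 glycolysis and hypoxia-linked genes 4 moved up and 6 down. Fewer moved down with any array left out, and fewer moved up without replicate 2 of 12hour_minusAkti. Slc2a1, the glucose transporter GLUT1, reversed upward, from 9.98 and 10.00 in control against 9.48 and 9.47 in treated cells at 2 h to 10.98 and 10.63 against 11.59 and 11.53 at 12 h (1.27 ± 0.20, limma adjusted p = 0.000644). The enolase genes Eno3 and Eno1 moved down, by 1.16 and 0.74. Of 26 sterol and fatty acid genes 4 moved up (15.4%, against 16% of all genes tested) and 3 down (11.5%, against 15.4%). Among them were, upward, Srebf2, the regulator of cholesterol synthesis (1.07 ± 0.26), and, downward, Dhcr7, which catalyses the last step of that synthesis. The effects of Dhcr7 were 2.16 at 2 h and 0.49 at 12 h. Of 27 PI3K, Akt and mTOR genes 7 moved up (25.9%, against 16% of all genes tested) and 1 down (3.7%, against 15.4%). Fewer moved up with several arrays left out, among them either 2hour_plusAkti array and replicate 1 of 2hour_minusAkti or of 12hour_plusAkti. The one that moved down was Eif4ebp2, a repressor of translation initiation that mTORC1 inactivates, which was raised in treated cells at 2 h to 9.07 and 8.82 from 7.82 and 7.78 and had an effect of -0.45 at 12 h. Ddit4 and Tsc2, both inhibitors of mTORC1, moved up by 1.23 and 0.88, and Tsc1 by 0.80, lost in 8 refits.

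Of 20 interferon-inducible genes 7 moved up (35.0%, against 16% of all genes tested) and 1 down (5.0%, against 15.4%). Tap2, a transporter of antigenic peptides, was at 9.70 and 9.62 in control and 8.26 and 8.01 in treated cells at 2 h and at 9.73 and 9.60 against 9.76 and 9.57 at 12 h, with effects of -1.52 and 0.00 (1.52 ± 0.24, limma adjusted p = 0.000691). Irf9 had a late difference of 1.21 ± 0.28, and the exception was Ifit2 at -1.02 ± 0.25. Among 28 genes of the T cell receptor complex and its proximal signalling 4 moved up (14.3%, against 16% of all genes tested). Downward there were 2 (7.14%, against 15.4%). Fewer moved up and fewer moved down with any array left out. The exchange factors Rasgrp1 and Vav1 were at 1.13 ± 0.20 and 0.97 ± 0.19. The kinases Lck and Zap70 (-0.56 and -0.46) lost their calls in 10 and 11 refits. Of 11 T cell and Th2 markers 2, Il1rl1 and Il4, moved up and 2, Gata3 and Lck, down. That is 18.2% each, against 16% and 15.4% of all genes tested.

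Of 29 mitosis genes 2 moved up and 2 down (6.90% each, where 16% and 15.4% of all genes tested did). Plk1, a mitotic kinase, was lower in treated cells at 2 h only (effects of -1.15 and -0.24), and Cdk1, the kinase that starts mitosis, was lower at 12 h (-0.15, then -0.97). Of 41 canonical histone genes 1 moved up and 9 down. The downward genes were H2A genes, led by H2ac11 with effects of 1.73 and 0.38, and 1 H2B gene, H2bc21, whose call was lost in 10 refits. These genes may share transcripts on the array. The upward gene was the linker histone gene H1f2, which dropped by 3.79 in controls and by 2.56 in treated cells.

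Of the called genes, 274 were not above the negative controls on either array of at least 1 of the 4 groups, so the fitted difference has no meaning as a size and a bound is given. Cox6a2, a subunit of cytochrome oxidase known from muscle, was at background in both groups at 2 h and in control cells at 12 h, where treated cells were at least 3.34-fold higher. Camk2b, a calcium-dependent kinase, was at least 1.39-fold higher in treated cells at 12 h, where the control arrays were at background. In the other direction Hamp, the gene of the iron hormone hepcidin, was above background in the 12 h controls only, at least 3.89-fold higher than in treated cells, and Vgf, a neurosecretory protein, was at least 2.78-fold higher in control cells at 12 h.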

How the data were processed

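Each bead intensity on Illumina mouse RefSeq8 arrays is given per gene in the table that the authors deposited, on a linear scale and without normalization or background subtraction. It covers 18138 genes and 832 control entries. Of the genes, 16590 matched the RefSeq gene table, and other names are those of the array. A gene counted as above background where under 0.01 of the 798 negative controls were as bright, and the 7395 genes above background on 2 or more of 16 arrays were tested. Intensities were corrected on the negative controls, quantile normalized and log2 transformed (neqc, offset 16, limma 3.58.1, R 4.3.3), and 8 groups were fitted in 1 model (8 residual and 4.26 prior degrees of freedom). The contrast was (12hour_plusAkti minus 12hour_minusAkti) minus (2hour_plusAkti minus 2hour_minusAkti), with p-values adjusted by Benjamini-Hochberg over all genes tested and a threshold of 0.05. The study's own method, a J5 score on each time point, has no test of such a difference. Its methods call controls untreated, whereas its results mention solvent. The number of arrays limits the precision, and the median SE of the difference was 0.214.

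Named genes are the first by size of the difference among called genes above background in all 4 groups and with 1 sign on both chips (28 genes: 4 reversed, 3 grown, 3 late, 2 shrunk and 2 early in each direction), up to 3 called genes per list and direction, 2 genes per direction with a group at background, and the inhibitor's targets. Some named genes are not reported here. Genes with a group at background are given as bounds, the brighter group's mean against, on each array of the other group, the higher of the lowest signal of any gene above background and the gene's own signal. Members and gene lists were chosen with earlier results of these data known. The procedure was tested on simulated data with 200 planted differences among 7395 genes, of which 114 were recovered. It recovered 33.7% of those of size 1 and 78.1% of those of size 2 on the log2 scale. It also called 6 genes that were not planted. Only 200 differences were planted, where 2320 were called in the data, which makes the adjusted threshold stricter. The simulation also added background noise to a spread between arrays that already held it. The shares recovered are therefore not the sensitivity in the data. A gene not called is not shown to be unchanged. Alternatives were other normalizations, offsets and filters, a fit of the 8 arrays alone, replicate and chip blocks, and leaving out each array in turn, where the array left alone borrows its spread from the other groups. Promoters are those of RefSeq (GRCm38.p6). Summaries were made with Python 3.11.15.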

Additional observations from a re-analysis of the deposited data

Results flagged for a closer look

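The Akti1/2 effect differed between the time points 2 and 12 h, by a test of the difference itself, in 2320 genes. Differences at the head of each class are given here on the log2 scale, positive where treated cells moved up against control cells. Among reversed effects they were 2.46 for Slc2a6, 2.36 for Bcas3, 2.22 for LOC100047173 and 2.16 for Grn, and -2.20 for Cct5, -2.19 for Piwil2, -2.17 for Pa2g4 and -2.14 for Ifrd2. Among effects that grew they were 2.93 for N4bp2l1, 2.79 for Ypel3 and 2.53 for Sqstm1, and -1.60 for Nkg7, -1.53 for Hba-a1 and -1.44 for Nutf2. Effects called at 12 h only gave 3.19 for Abtb1, 2.96 for Atf5 and 2.73 for Gpnmb, and -2.37 for Stra6, -2.24 for Car12 and -2.19 for Mybl2. Effects that shrank gave 1.31 for Fitm2, 1.15 for Tnf, -0.97 for Hif1a and -0.90 for H2ac15. Effects called at 2 h only gave 1.93 for Sh3tc1, 1.91 for Myo1g, -2.11 for Gm9391 and -2.05 for Rad23b. Of these 28 genes, Tnf and Gm9391 lost their calls in 4 and 3 refits, and none changed sign. In 2 refits each the size of the difference moved for Slc2a6, LOC100047173, Piwil2, Ifrd2, Hba-a1, Abtb1, Atf5, Gpnmb, Stra6 and Gm9391.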

How the results depend on the processing

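No gene called in the difference changed sign under any setting that was run. The number called was 2452 with quantile normalization without background correction, 2176 with arrays scaled to the same mean, 2468 at offset 50, 1995 without a filter on dim genes and 2165 with only the 8 arrays at 2 and 12 h. Of 135 named genes that were tested, 104 kept the call in every refit and 31 lost it in 1 or more. Class counts that moved by over 1.5 times were downward reversals without a filter on dim genes (48), and shrunk effects, downward with quantile normalization alone (18), at offset 50 (20) and with only genes above background on all 16 arrays (16), and without a filter 7 upward and 4 downward. Leaving out each array in turn gave 1737 to 2093 called differences, 909 to 1091 upward and 828 to 1002 downward. It gave 1167 to 1984 called effects at 2 h (1219 and 1359 without the first or second control array, 1167 without replicate 2 of 2hour_plusAkti), 2677 to 2824 at 6 h and 2777 to 3641 at 12 h. Reversed effects numbered 54 to 106 upward and 41 to 81 downward, grown ones 66 to 122 and 42 to 106, late ones 492 to 669 and 483 to 655, shrunk ones 5 to 17 and 2 to 16, and early ones 112 to 197 and 88 to 176.

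The replicate numbers do not pair the arrays. Deviations of arrays with the same number correlated with r from -0.039 to 0.085, those of arrays on the same chip from 0.014 to 0.085, and the numbers of the 12 h controls lie on the opposite chips. With a replicate block 2275 differences were called, and with a chip block 2279. Probes not above background have no level, and this limits 274 of the called genes.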
